A study of Homo sapiens with 16 samples.

Results

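HERV-H is a family of endogenous retroviruses, remnants of viral genomes fixed in human DNA, whose long terminal repeat LTR7 is transcribed in human pluripotent cells. OCT4 (POU5F1), NANOG, KLF4 and TFCP2L1 (LBP9) are known to bind it there, and transcripts that begin in it or run through it, including long noncoding RNAs (lncRNAs) and chimeras with neighbouring genes, mark the pluripotent state. The genes described here are ESRG, HHLA1, ABHD12B, SCGB3A2 and LINC-ROR, which were matched by symbol to 5 of the 58735 gene IDs of the read-count table. ESRG is an lncRNA of human pluripotent cells and LINC-ROR an lncRNA that promotes reprogramming to pluripotency. HHLA1 was named for its association with a HERV-H long terminal repeat, ABHD12B encodes an alpha/beta hydrolase family protein, and SCGB3A2 encodes a secretoglobin best known from the airway epithelium. The 5 members were chosen by their read counts, and by those counts scaled to library size (CPM), in the same 4 groups described below, so their levels and changes are given as a description, with no p-value, and where edgeR's calls for them are counted nothing is read from the count.

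The NT2/D1 line derives from an embryonal carcinoma (EC) and the TCam-2 line from a seminoma (SEM). For RNA sequencing each received either a mimic of MIR9-2-5p or a universal scrambled miRNA, at 25 nM, and was collected after 3 days. The 4 groups held 4 biological replicates each, which makes 16 libraries. Each line is a single established culture, and the miRNA was supplied from outside the cell. Library totals lay between 14167738 and 22427162 counts. The question asked of these genes was how their RNA differed between cells given MIR9-2-5p and cells given the scrambled control, in each line.

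The mimic carries the mature sequence of MIR9-2-5p, shown here because its seed, bases 2 to 8, sets which transcripts it can pair with. The mature miRNA as RefSeq gives it (GRCh38.p14, chr5:88666902-88666924, minus strand) has the seed in capitals.
hsa-miR-9-5p: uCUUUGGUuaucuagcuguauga
No match to the whole seed, an 8mer or a 7mer site, was present in the longest annotated transcript of ESRG (3140 bases), HHLA1 (4188 bases), ABHD12B (2863 bases), SCGB3A2 (672 bases) or LINC-ROR (2604 bases). Shorter 6mer matches numbered 2 in ABHD12B and 1 in LINC-ROR. Whether an A follows these, which would make another kind of 7mer site, was not checked. Over the longest transcripts of all 58207 annotated genes of the table, 15.3% held at least 1 7mer site. An absent match says only that these letters are not in those transcripts.

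The members share a sequence that lies at the start of ESRG and LINC-ROR and elsewhere in or near the other 3 genes. The 300 bases around the ESRG start, 250 before and 50 after it, were searched for in the human genome (GRCh38), and 2063 copies of at least 250 aligned bases and 80% identity were found. All 5 genes held 1 to 3 copies in the gene or within 5000 bases of it, at 93% to 100% identity.

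The annotated starts of ESRG and LINC-ROR fall inside the copy. The ABHD12B copy lies within the gene, 27 bases before the start of an internal transcript and far from the first start of the gene. The same-strand copy nearest to SCGB3A2 lies 1699 bases before the first annotated start, and 2 more copies there run on the opposite strand. ESRG and LINC-ROR each hold a second copy on their own strand, whose start lies 5269 bases away in ESRG and 7403 bases away in LINC-ROR. The search was made with the ESRG sequence and not with a repeat annotation, which was not used here, so the copies are not assigned to a repeat subfamily.

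**Figure D1:**
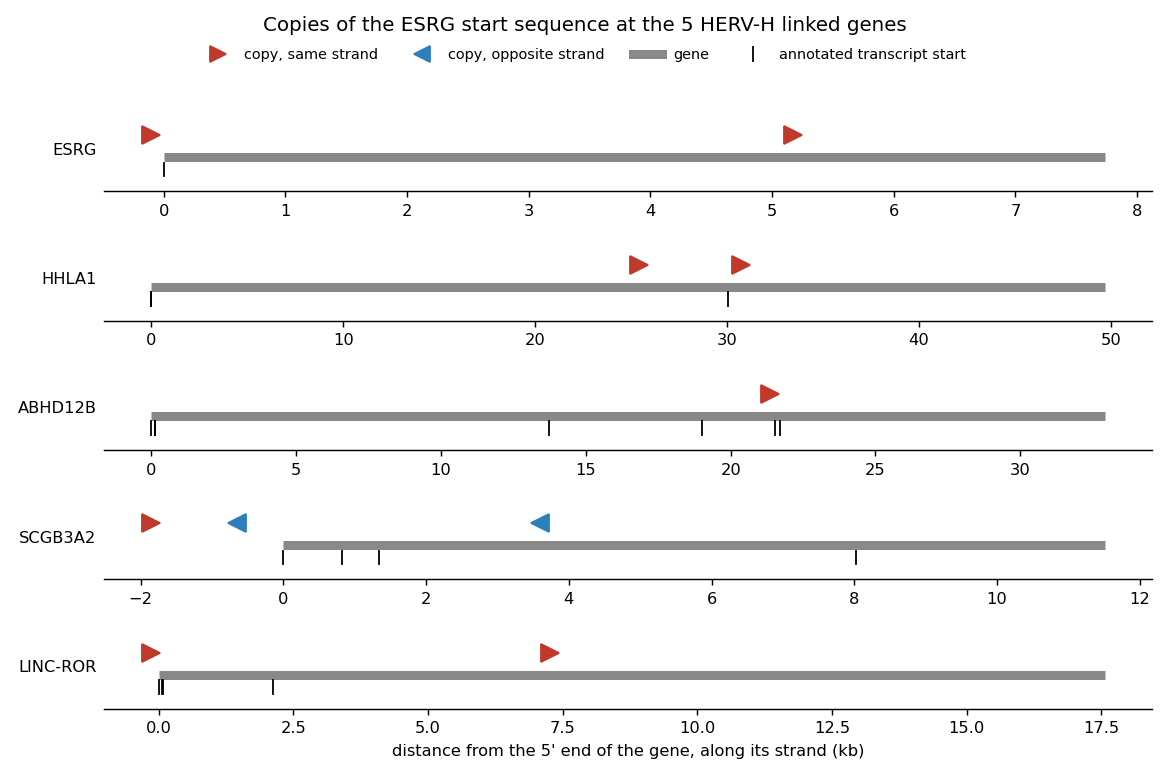
Copies of the 300-base ESRG start sequence (arrowheads at their centres, pointing along their strand) at the 5 HERV-H linked genes, with the distance from the gene's 5′ end in kb on each horizontal axis, the gene as a grey bar and annotated transcript starts as ticks. ESRG and LINC-ROR have a start inside a copy, ABHD12B has an internal start 27 bases after one, and the nearest same-strand copy of SCGB3A2 ends 1699 bases before its first start.

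In NT2/D1 cells all 5 genes were lower with MIR9-2-5p, to between 11.4% and 28.1% of the scrambled level, and for each of them every MIR9-2-5p library lay below every scrambled library. The share of all genes set apart in this way was not counted, so nothing is read from the separation. In TCam-2 cells the 5 genes did not move together. ESRG was 1.39-fold higher, ABHD12B and SCGB3A2 stood at 82.7% and 85.2% of the scrambled level, HHLA1 overlapped between the groups, and LINC-ROR was at or under 3 counts in every library. By edgeR's quasi-likelihood test the calls were 5 lower in NT2/D1, where 29.1% of the 17586 tested genes were lower and 30.2% higher. In TCam-2 they were 1 higher and 2 lower of the 4 that passed the filter on low counts, where 33.7% of the 16847 tested genes were higher and 32.7% lower. These calls come from the contrast that chose the genes.

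ESRG (chr3:54632122-54639857, minus strand, lncRNA) had 298, 274, 309 and 298 CPM in NT2/D1 cells with MIR9-2-5p, against 1695, 1756, 1723 and 1546 CPM with the scrambled control. The means were 295 ± 14.6 and 1680.3 ± 92.6 CPM (SD, n = 4 each), a log2 fold change of -2.51 (SE 0.07), or 17.5% of the scrambled level. The groups were far apart and tight within themselves. In TCam-2 cells ESRG had 222, 209.8, 239 and 223 CPM with MIR9-2-5p, against 173, 151, 158 and 165 CPM with the scrambled control, a log2 fold change of 0.48 (SE 0.07). Here too the groups did not overlap, with every MIR9-2-5p library above every scrambled one, the opposite order to NT2/D1.

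ESRG was among the most abundant RNAs of scrambled NT2/D1 cells. By mean CPM per kb of exon it ranked 345 in NT2/D1 cells with MIR9-2-5p, against 41 with the scrambled control, at 93.9 and 535 CPM per kb. In TCam-2 cells it ranked 520 with MIR9-2-5p, against 880 with the scrambled control, at 71.2 and 51.5 CPM per kb. The 5 genes together summed to 325 ± 15.3 CPM in NT2/D1 cells with MIR9-2-5p, against 1873 ± 103 CPM with the scrambled control (SD, n = 4 each), of which ESRG made up 90.8% and 89.7%. In TCam-2 cells they summed to 329 ± 15.4 CPM with MIR9-2-5p, against 288 ± 3.55 CPM with the scrambled control (SD, n = 4 each), of which ESRG made up 67.8% and 56.1%. On this summed scale the MIR9-2-5p groups of both lines stood close to each other, while the make-up of the sum differed.

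LINC-ROR (chr18:57054558-57072119, minus strand), the other lncRNA, had 27, 24, 57 and 37 counts in NT2/D1 cells with MIR9-2-5p, against 163, 169, 199 and 155 counts with the scrambled control. As CPM these were 1.31, 1.29, 2.47 and 1.72 with MIR9-2-5p, against 9.14, 10.3, 9.10 and 8.19 with the scrambled control. The third MIR9-2-5p library was the highest of its group and still far below the scrambled libraries. The log2 fold change was -2.41 (SE 0.19), or 18.8% of the scrambled level. In TCam-2 cells LINC-ROR had 0, 0, 1 and 2 counts with MIR9-2-5p, against 3, 2, 1 and 0 counts with the scrambled control, too few for a fold change. A difference between the treatments was not detectable at this depth in TCam-2.

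**Figure D2:**
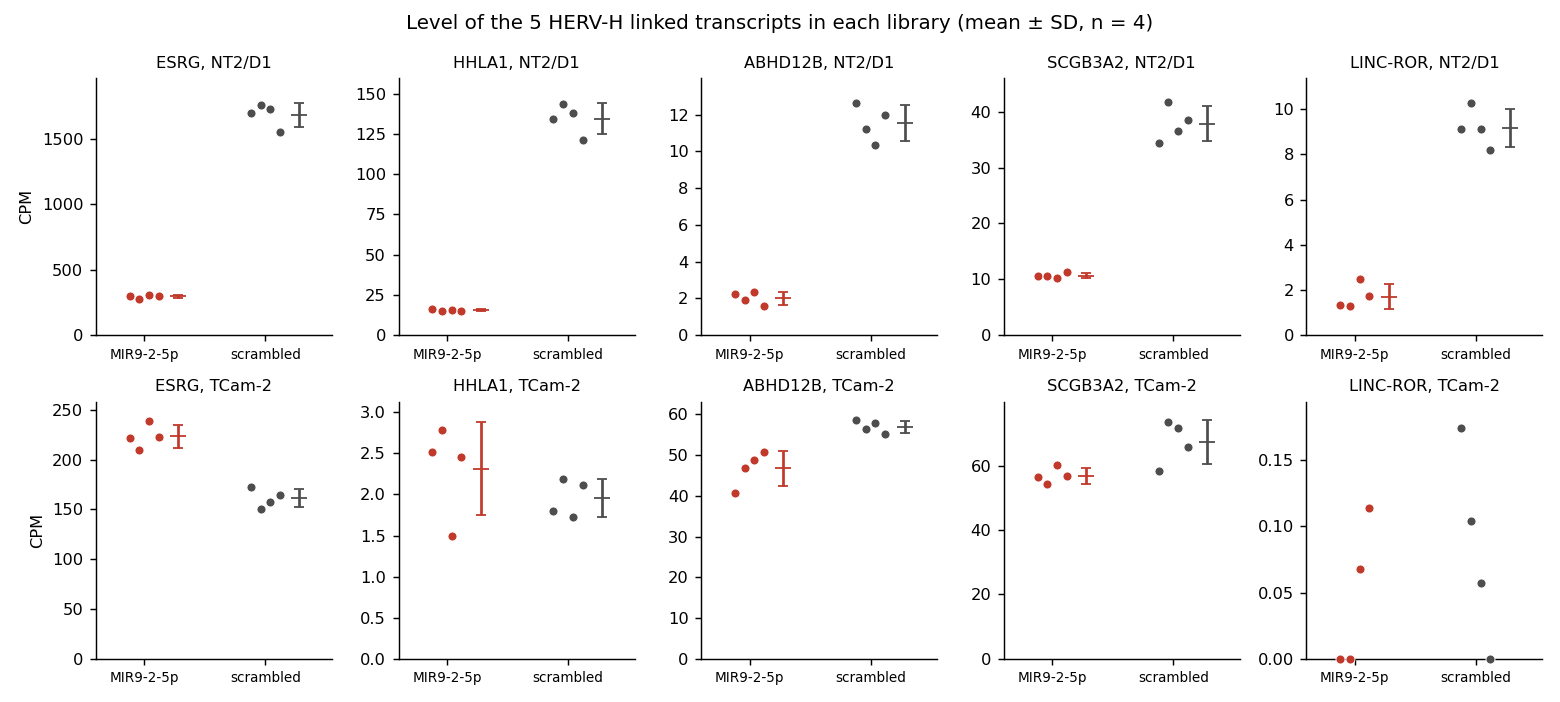
CPM (vertical axes, from 0) of the 5 HERV-H linked transcripts in each library of NT2/D1 (top row) and TCam-2 (bottom row) with MIR9-2-5p (left, red) or the scrambled control (right, grey). Points are libraries and bars the mean ± SD (n = 4), left out for LINC-ROR in TCam-2. In NT2/D1 every MIR9-2-5p library lies below every scrambled library for all 5 genes, and in TCam-2 ESRG is higher with 209.8 to 239 CPM against 151 to 173 CPM.

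HHLA1 (chr8:132061480-132111159, minus strand, protein coding) had the largest fold difference of the 5 in NT2/D1. It had 16.2, 15.1, 15.6 and 14.8 CPM with MIR9-2-5p, against 135, 144, 138 and 121 CPM with the scrambled control, a log2 fold change of -3.13 (SE 0.08), or 11.4% of the scrambled level. The groups were widely separated. In TCam-2 cells it was low, with 2.51, 2.79, 1.5 and 2.45 CPM with MIR9-2-5p, against 1.80, 2.19, 1.72 and 2.11 CPM with the scrambled control. The lowest MIR9-2-5p library lay under all 4 scrambled ones and the other 3 lay above them, and the log2 fold change was 0.27 (SE 0.23). HHLA1 held 2 copies of the ESRG start sequence on its own strand, at 97.0% and 97.3% identity and 5314 bases apart. Both lie well inside the gene, and no annotated start of HHLA1 falls in either.

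A read-through gene that joins this locus, ENSG00000258417, starts inside the 97.3% copy, overlaps HHLA1 on the same strand and may share reads with it. In NT2/D1 cells it fell, at 1.41 ± 0.162 CPM with MIR9-2-5p, against 7.44 ± 1.08 CPM with the scrambled control (SD, n = 4 each), for which edgeR gave a log2 fold change of -2.40 (SE 0.17, adjusted p = 4.19e-09). In TCam-2 cells it had 20 counts in all with MIR9-2-5p, against 6 with the scrambled control and did not pass the filter. OC90, an otoconial protein gene known to be spliced with HHLA1 in teratocarcinoma cells, had 0 and 6 counts in NT2/D1 with MIR9-2-5p and scrambled, and 4 and 0 counts in TCam-2. KCNQ3, a potassium channel gene on the other side, rose in NT2/D1, at 7.73 ± 1.15 CPM with MIR9-2-5p, against 2.42 ± 0.355 CPM with the scrambled control (SD, n = 4 each), for which edgeR gave a log2 fold change of 1.68 (SE 0.17, adjusted p = 1.81e-07). In TCam-2 its log2 fold change was 0.11 (SE 0.14, edgeR adjusted p = 0.494).

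ABHD12B (chr14:50872053-50904970, plus strand, protein coding) had 2.24, 1.89, 2.34 and 1.58 CPM in NT2/D1 cells with MIR9-2-5p, against 12.6, 11.2, 10.3 and 12 CPM with the scrambled control. The log2 fold change was -2.52 (SE 0.15), or 17.5% of the scrambled level. In TCam-2 cells it was more abundant, with 40.7, 46.7, 48.7 and 50.8 CPM with MIR9-2-5p, against 58.5, 56.5, 57.8 and 55.2 CPM with the scrambled control, a log2 fold change of -0.27 (SE 0.08). The groups did not overlap in either line, but with raw library totals they did in TCam-2, at 41.8 to 52.2 CPM with MIR9-2-5p, against 50.4 to 56.8 CPM with the scrambled control. PYGL, the liver glycogen phosphorylase gene, overlaps ABHD12B on the opposite strand and did not follow it in NT2/D1, at 57.7 ± 3.16 CPM with MIR9-2-5p, against 49.3 ± 2.42 CPM with the scrambled control (SD, n = 4 each, log2 fold change 0.22, SE 0.08, edgeR adjusted p = 0.0168). That call was lost with upper-quartile library factors (adjusted p = 0.0992) and without NT2/D1 MIR9-2-5p replicate 3 (adjusted p = 0.0608). In TCam-2 PYGL fell (log2 fold change -0.89, SE 0.07, edgeR adjusted p = 9.45e-09).

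SCGB3A2 (chr5:147870682-147882191, plus strand, protein coding) had the smallest difference of the 5 in NT2/D1. It had 10.6, 10.5, 10.2 and 11.3 CPM with MIR9-2-5p, against 34.4, 41.8, 36.6 and 38.5 CPM with the scrambled control, a log2 fold change of -1.83 (SE 0.09), or 28.1% of the scrambled level. The groups were well apart. In TCam-2 cells it had 56.4, 54.3, 60.2 and 56.7 CPM with MIR9-2-5p, against 58.5, 73.8, 71.7 and 65.7 CPM with the scrambled control, a log2 fold change of -0.23 (SE 0.08). The groups overlapped, since 1 scrambled library lay below the highest MIR9-2-5p library. No annotated start of SCGB3A2 falls in a copy. C5orf46, which overlaps it on the opposite strand, fell in NT2/D1, where it had 19 and 67 counts in all with MIR9-2-5p and scrambled (log2 fold change -1.97, SE 0.47, edgeR adjusted p = 0.00169). It rose in TCam-2, with 267 and 120 counts (log2 fold change 1.17, SE 0.22, edgeR adjusted p = 0.000148).

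**Figure D3:**
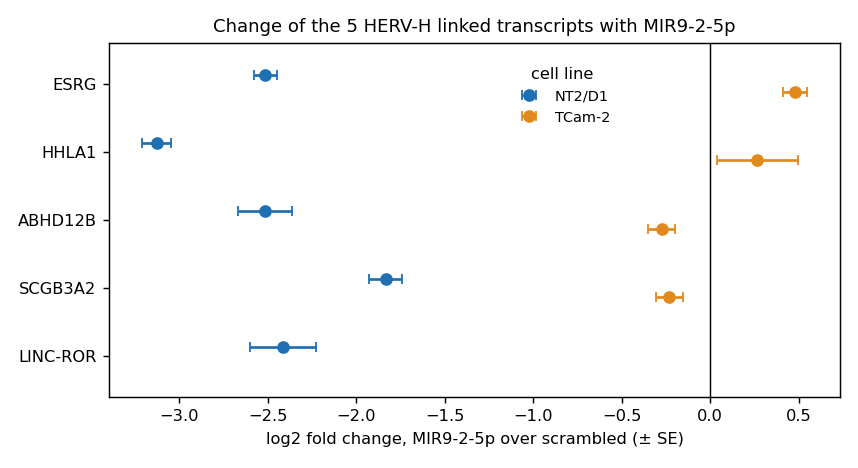
Log2 fold change of MIR9-2-5p over scrambled (horizontal axis, points with SE bars from edgeR) for the 5 HERV-H linked transcripts in NT2/D1 (blue) and TCam-2 (orange). The NT2/D1 values lie between -3.13 and -1.83 and the TCam-2 values between -0.27 and 0.48, and LINC-ROR has no TCam-2 value because it had at most 3 counts there.

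The gene that hosts ESRG also moved in NT2/D1. ESRG lies within CACNA2D3, a calcium channel subunit gene on the opposite strand, which fell to 6.07 ± 0.476 CPM with MIR9-2-5p, against 10.3 ± 1.53 CPM with the scrambled control (SD, n = 4 each, log2 fold change -0.77, SE 0.13, edgeR adjusted p = 9.01e-05). In TCam-2 its log2 fold change was 0.08 (SE 0.10, edgeR adjusted p = 0.502). The strand setting of the counting is not given, so reads where CACNA2D3, PYGL and C5orf46 overlap the exons of a member cannot be told apart from the member's own. Around the members, 14 genes of the table were the nearest on either side or overlapped, and only 5 of them passed the filter in NT2/D1, with 2 higher and 3 lower. The nearest genes of LINC-ROR, WDR7-OT1 and ENSG00000267789, had 1 and 0 counts over all 16 libraries. Of the remaining 6, RPS15P5, CACNA2D3-AS1 and 4 unnamed lncRNAs and pseudogenes, none passed the filter in either line.

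The difference between the responses of the lines, NT2/D1 minus TCam-2 on the log2 scale, was -2.98 (SE 0.09) for ESRG, -3.38 (SE 0.19) for HHLA1, -2.22 (SE 0.15) for ABHD12B and -1.58 (SE 0.12) for SCGB3A2. These 4 of the 5 were among the calls of the interaction term, where 53.2% of 19576 tested genes were called in either direction. Between the scrambled groups the members split. ESRG was 10.4-fold and HHLA1 68.5-fold higher in the NT2/D1 group, with log2 differences of 3.38 (SE 0.07) and 6.10 (SE 0.11), and LINC-ROR had 686 counts in all in NT2/D1 and 6 in TCam-2. ABHD12B and SCGB3A2 were lower in NT2/D1, at 20.2% and 56.1% of their TCam-2 level, with log2 differences of -2.30 (SE 0.09) and -0.83 (SE 0.09). No gene of the 5 overlapped between the scrambled groups, but the share of all genes without overlap was not counted. Among all genes tested, 39.8% were higher and 39.4% lower in scrambled NT2/D1, so calls of this kind were common.

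The same split appeared over the 16 libraries. The Pearson correlation of log2 CPM was 0.954 between ESRG and HHLA1, 0.990 between HHLA1 and LINC-ROR, and 0.971 between ABHD12B and SCGB3A2, but -0.352 between ESRG and ABHD12B. The 16 libraries form 4 groups, so these values describe group means. Of 13119 named genes with a mean count of at least 50, those most like ESRG were DLGAP1-AS2 (r = 0.991), ZNF875 (r = 0.989) and DPPA4 (r = 0.989). The genes most like HHLA1 were D21S2088E (r = 0.996), GLI1 (r = 0.996) and MIR124-1HG (r = 0.995). VENTX (r = 0.995), ERBB3 (r = 0.994) and MAP7 (r = 0.993) were most like ABHD12B. KIZ (r = 0.992) and POU5F1 (r = 0.992) were among the 3 most like SCGB3A2, and JADE1 (r = 0.996), POLR3G (r = 0.994) and D21S2088E (r = 0.993) were most like LINC-ROR.

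Other genes that start in a copy of the ESRG start sequence were counted next. An annotated start lay in or within 100 bases of a same-strand copy for 41 further genes of the table, mostly lncRNAs. This list was defined by sequence after the members' values had been seen, and 1 of its genes, ENSG00000258417, overlaps HHLA1 and may share its reads. The copies are alike in sequence, and the treatment of reads that map to several places is not given. Reads may therefore be shared among the listed genes and with ESRG, and the genes cannot be taken as independent of one another. In NT2/D1 cells 24 of the 41 passed the filter, of which 21 were lower and 2 higher with MIR9-2-5p and 1 was not called, with a median log2 fold change of -2.46 against -0.02 over all tested genes. Without ENSG00000258417, left out after seeing the data, 20 of 23 were lower, with a median of -2.52. Among tested lncRNAs of any kind 31.5% were lower and 14.5% higher. In TCam-2 cells 19 passed, of which 14 were higher, 3 lower and 2 not called, with a median log2 fold change of 0.75 against 0.02 over all tested genes, and 37.7% of tested lncRNAs were higher and 13.1% lower. With no filter, 37 of the 41 had counts in NT2/D1, and the mean CPM was lower with MIR9-2-5p in 32 and higher in 5, against 49.8% lower over all genes with counts. In TCam-2 it was higher in 24 of 37 and lower in 13, against 55.7% higher over all genes with counts.

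**Figure D4:**
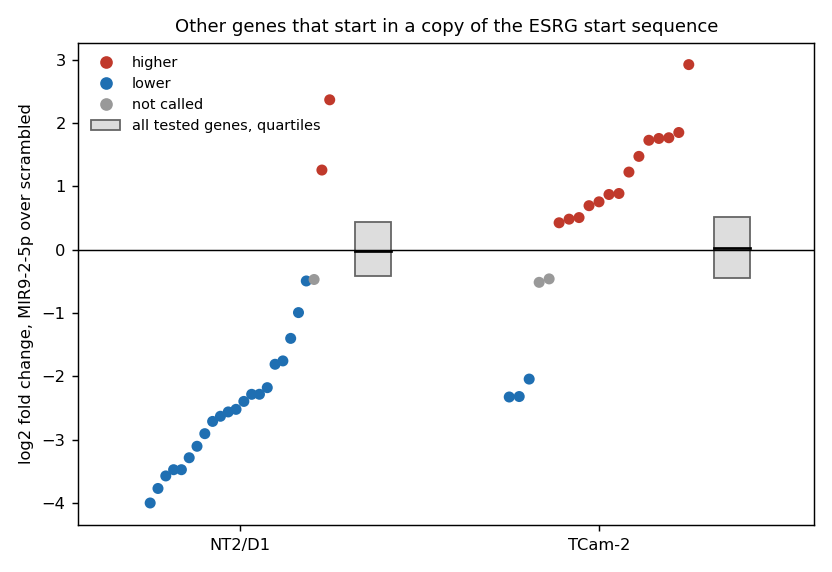
Log2 fold change of MIR9-2-5p over scrambled (vertical axis) for the other genes that start in a copy of the ESRG start sequence and passed the filter, 24 in NT2/D1 and 19 in TCam-2, in rising order within each line and coloured by edgeR call. Grey boxes give the quartiles and median of all tested genes, and 21 of 24 genes are called lower in NT2/D1 while 14 of 19 are called higher in TCam-2.

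Of these genes the following are named after their values were seen. LINC01356 fell in NT2/D1, at 1.92 ± 0.719 CPM with MIR9-2-5p, against 21.1 ± 1.04 CPM with the scrambled control (SD, n = 4 each, log2 fold change -3.48, SE 0.18, edgeR adjusted p = 5.58e-11). It rose in TCam-2, at 213 ± 14.1 CPM with MIR9-2-5p, against 117 ± 7.74 CPM with the scrambled control (SD, n = 4 each, log2 fold change 0.89, SE 0.07, edgeR adjusted p = 3.01e-09). ENSG00000257474 showed the same pair of directions, with log2 fold changes of -2.29 (SE 0.09) in NT2/D1 and 0.87 (SE 0.19) in TCam-2. RPL39L, a testis-enriched ribosomal protein gene with close relatives that may share its reads, had -0.50 (SE 0.09, edgeR adjusted p = 0.000138) in NT2/D1 and 0.48 (SE 0.14, edgeR adjusted p = 0.00689) in TCam-2. The genes called higher in NT2/D1 were TFPI, an inhibitor of blood coagulation, and IFIT2, an interferon-induced gene, which rose by 1.26 (SE 0.13) and 2.36 (SE 0.37) on the log2 scale. IFIT2 had only 136 and 23 counts in all there with MIR9-2-5p and scrambled. In TCam-2 IFIT2 rose by 2.92 (SE 0.34), with 266 and 35 counts, and TFPI fell by 2.32 (SE 0.37), with 28 and 144 counts. ENSG00000282048 and ENSG00000253507 fell in TCam-2 as well. Counts cover all transcripts of a gene, and not every start of a listed gene need lie in a copy. C5AR1, a complement receptor gene with 54 and 68 counts in NT2/D1 with MIR9-2-5p and scrambled, was not called.

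A list of 9 further genes linked to HERV-H from background knowledge was counted next. In NT2/D1 4 of the 5 that passed the filter were lower and none was higher, with a median log2 fold change of -2.63. In TCam-2 6 of 7 were higher and 1 was lower, with a median of 0.50. Of all tested genes 29.1% were lower and 30.2% higher in NT2/D1, and 33.7% were higher and 32.7% lower in TCam-2. These shares also stand beside the counts of the lists that follow. LINC00458, an lncRNA of pluripotent cells, had 1.39 ± 0.313 CPM with MIR9-2-5p, against 11.9 ± 1.30 CPM with the scrambled control in NT2/D1 (SD, n = 4 each, log2 fold change -3.11, SE 0.17, edgeR adjusted p = 8.78e-11). In TCam-2 its groups held only 126 and 37 counts in all, at 1.80 ± 0.752 and 0.521 ± 0.322 CPM (SD, n = 4 each, log2 fold change 1.77, SE 0.41, edgeR adjusted p = 0.000964). LINC00678 moved in the same directions, with log2 fold changes of -2.63 (SE 0.15) in NT2/D1 and 0.50 (SE 0.11) in TCam-2, and both genes also start in a copy. LINC01108 fell in both lines, with log2 fold changes of -2.83 (SE 0.19) in NT2/D1 and -1.02 (SE 0.34) in TCam-2, and its TCam-2 call was lost without TCam-2 scrambled replicate 4 (adjusted p = 0.0652). GSDMB, a gasdermin gene, had -0.49 (SE 0.11) in NT2/D1 and 0.30 (SE 0.10) in TCam-2, both called.

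C4orf51 had 11 and 55 counts in all in NT2/D1 with MIR9-2-5p and scrambled, which did not pass the filter, and it rose in TCam-2 with 151 and 46 counts (log2 fold change 1.70, SE 0.31, edgeR adjusted p = 9.11e-05). HHLA3 had a log2 fold change of -0.21 in NT2/D1 with an SE of 0.12 (edgeR adjusted p = 0.138) and rose in TCam-2 by 0.67 (SE 0.13, edgeR adjusted p = 0.000231). With upper-quartile factors HHLA3 was called lower in NT2/D1 (edgeR adjusted p = 0.0486). UCA1, an lncRNA named for urothelial carcinoma, had 7 and 0 counts in NT2/D1 with MIR9-2-5p and scrambled. In TCam-2 it rose, at 50.3 ± 4.12 CPM with MIR9-2-5p, against 38.8 ± 3.67 CPM with the scrambled control (SD, n = 4 each, edgeR adjusted p = 0.000825). HHLA2 had 0 counts in every library.

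Most of the factors known to act on HERV-H were lower in NT2/D1, and a link to the members was not tested. Of the 8 genes listed, 6 were lower, MED12 was higher and MED6 was not called, with a median log2 fold change of -1.06. Of all tested genes 29.1% were lower and 30.2% higher there. POU5F1, the core pluripotency factor OCT4, had 455, 523, 434 and 451 CPM with MIR9-2-5p, against 1777, 1558, 1625 and 1833 CPM with the scrambled control (log2 fold change -1.87, SE 0.07, edgeR adjusted p = 2.01e-12). NANOG, its partner, had 62.8, 59.8, 65.1 and 71.3 CPM with MIR9-2-5p, against 228, 252, 255 and 252 CPM with the scrambled control (log2 fold change -1.94, SE 0.07, edgeR adjusted p = 1.43e-12). In both genes the groups were far apart. SOX2, KLF4 and TFCP2L1 fell by 1.02 (SE 0.09), 1.10 (SE 0.11) and 1.22 (SE 0.14), and EP300, a histone acetyltransferase and coactivator, by 0.28 (SE 0.08). MED12, a Mediator subunit, rose by 0.77 (SE 0.09), and MED6 had a log2 fold change of 0.07 with an SE of 0.09 (edgeR adjusted p = 0.5).

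In TCam-2 the same list was mixed, with 4 higher, 3 lower and 1 not called. NANOG rose, with 804, 905, 987 and 938 CPM with MIR9-2-5p, against 629.9, 536, 567 and 546 CPM with the scrambled control (log2 fold change 0.69, SE 0.07, edgeR adjusted p = 2.9e-07). TFCP2L1 rose, with 474, 463, 483 and 459 CPM with MIR9-2-5p, against 359, 324, 334 and 349 CPM with the scrambled control (log2 fold change 0.47, SE 0.06, edgeR adjusted p = 1.96e-06). Neither gene overlapped between its groups. KLF4 and EP300 rose by 0.29 (SE 0.07) and 0.48 (SE 0.08), and POU5F1, SOX2 and MED12 fell by 0.25 (SE 0.07), 0.92 (SE 0.29) and 0.93 (SE 0.09). SOX2 was at 0.794 ± 0.205 CPM with MIR9-2-5p, against 1.54 ± 0.217 CPM with the scrambled control there (SD, n = 4 each). MED6 had a log2 fold change of -0.15 with an SE of 0.10 (edgeR adjusted p = 0.198) and passed without TCam-2 MIR9-2-5p replicate 3 (adjusted p = 0.0361).

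**Figure D5:**
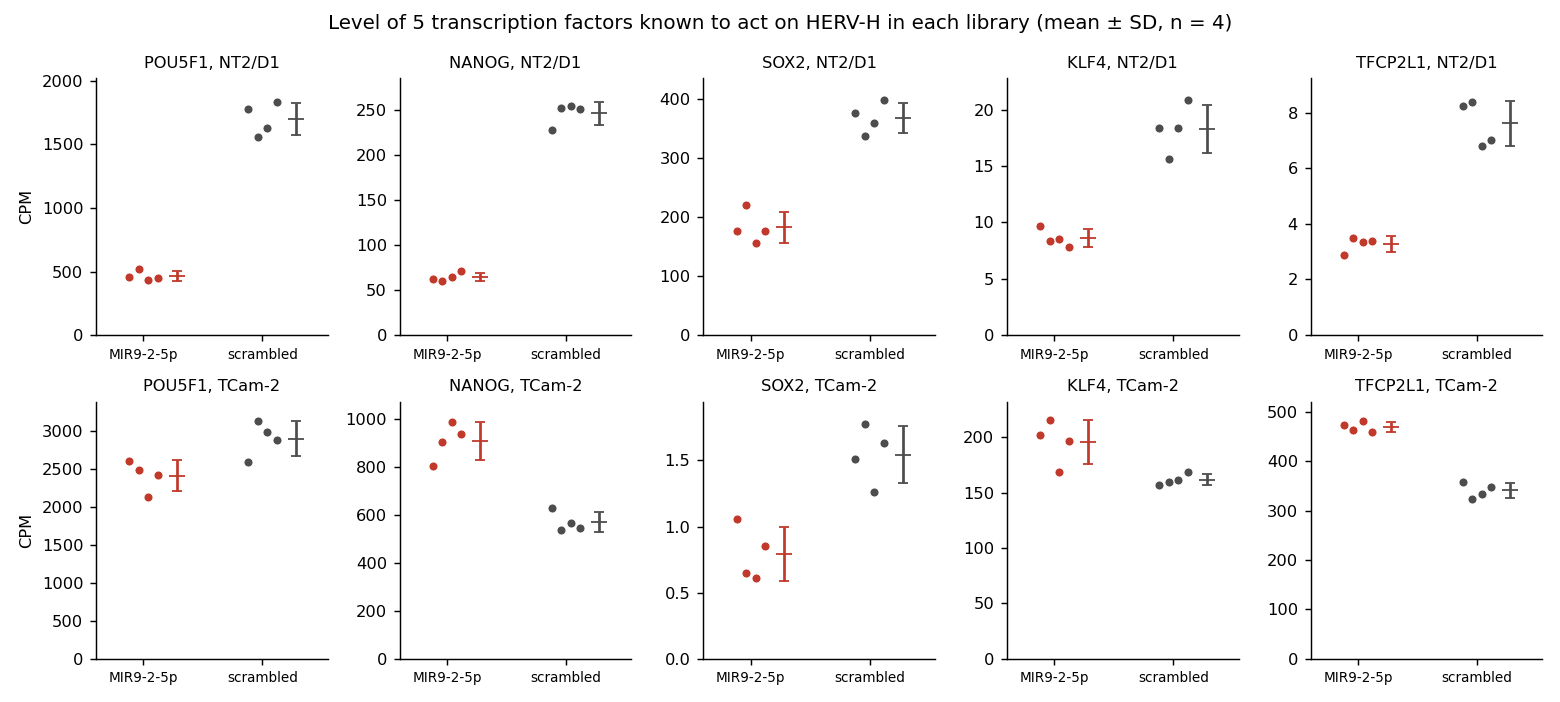
CPM (vertical axes, from 0) of POU5F1, NANOG, SOX2, KLF4 and TFCP2L1 in each library of NT2/D1 (top row) and TCam-2 (bottom row) with MIR9-2-5p (left, red) or the scrambled control (right, grey), with the mean ± SD (n = 4). All 5 are lower with MIR9-2-5p in NT2/D1, while in TCam-2 NANOG (804 to 987 against 536 to 629.9 CPM) and TFCP2L1 (459 to 483 against 324 to 359 CPM) are higher.

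Genes that silence retroelements did not move as a block in NT2/D1, where 4 of 13 were lower, 1 was higher and 8 were not called, with a median log2 fold change of -0.12. With upper-quartile factors 8 of the 13 were called there, against 5 with the standard factors. In TCam-2 9 were lower, 2 higher and 2 not called, with a median of -0.34. TRIM28, the corepressor that recruits SETDB1 to retroviral sequences, fell in both lines, by 0.68 (SE 0.08, edgeR adjusted p = 2.84e-06) in NT2/D1 and 1.15 (SE 0.08, edgeR adjusted p = 6.98e-10) in TCam-2. Its TCam-2 level was 671 ± 83.6 CPM with MIR9-2-5p, against 1502 ± 79.0 CPM with the scrambled control (SD, n = 4 each). DNMT3B, a de novo DNA methyltransferase, fell by 2.03 (SE 0.06) in NT2/D1 and 1.26 (SE 0.07) in TCam-2. UHRF1, which guides maintenance methylation, rose by 0.82 (SE 0.09) in NT2/D1 and fell by 0.62 (SE 0.11) in TCam-2. CBX5, the heterochromatin protein HP1 alpha, fell by 0.36 (SE 0.08) in NT2/D1 and rose by 0.75 (SE 0.08) in TCam-2. DNMT3A had -0.12 (SE 0.07, edgeR adjusted p = 0.143) in NT2/D1 and fell by 0.77 (SE 0.06) in TCam-2. In NT2/D1 DNMT3A was called lower with upper-quartile factors (edgeR adjusted p = 0.0204) and without MIR9-2-5p replicate 2 (edgeR adjusted p = 0.042).

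Endogenous retroviral genes of other families were mixed in NT2/D1, where 3 of the 6 that passed the filter were higher, 1 was lower and 2 were not called. ERVH48-1, a secreted envelope protein gene of the HERV-H48 family, fell, at 2.34 ± 0.548 CPM with MIR9-2-5p, against 8.70 ± 1.54 CPM with the scrambled control (SD, n = 4 each, log2 fold change -1.89, SE 0.18, edgeR adjusted p = 1.34e-07). ERVK13-1, ERV3-1 and ERVK3-1 rose by 0.92 (SE 0.13), 0.57 (SE 0.15) and 0.52 (SE 0.18), and ERVV-2 and ERVMER34-1 were not called. In TCam-2 4 of 9 were higher and 4 lower. ERVW-1 (syncytin-1), the envelope gene used in the placenta, rose there, at 503 ± 36.9 CPM with MIR9-2-5p, against 289 ± 8.05 CPM with the scrambled control (SD, n = 4 each, log2 fold change 0.82, SE 0.06, edgeR adjusted p = 4.57e-09), and it had 44 and 16 counts in NT2/D1. ERVK13-1, ERV3-1 and ERVK3-1 rose by 0.71 (SE 0.13), 0.79 (SE 0.15) and 0.32 (SE 0.12), while ERVFRD-1, ERVV-1, ERVV-2 and ERVMER34-1 fell by 0.77 (SE 0.17), 1.44 (SE 0.34), 0.98 (SE 0.36) and 0.93 (SE 0.21). ERVH48-1 had -0.08 (SE 0.06, edgeR adjusted p = 0.192) in TCam-2, and its level there was far higher, at 763 ± 24.1 CPM with MIR9-2-5p, against 816 ± 14.8 CPM with the scrambled control (SD, n = 4 each). ERVK-28 was not tested, and its counts in TCam-2 cells with MIR9-2-5p were 6, 3, 1 and 148. The ERVV-2 call in TCam-2 was lost without TCam-2 scrambled replicate 2 (adjusted p = 0.115), MIR9-2-5p replicate 1 (adjusted p = 0.0651) or MIR9-2-5p replicate 4 (adjusted p = 0.0628). The ERVK3-1 call in NT2/D1 was lost without scrambled replicate 4 (adjusted p = 0.0586) or MIR9-2-5p replicate 1 (adjusted p = 0.0862). In TCam-2 it was lost without scrambled replicate 1 (adjusted p = 0.0514), scrambled replicate 2 (adjusted p = 0.0849) or MIR9-2-5p replicate 1 (adjusted p = 0.0543).

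Other lncRNAs of pluripotent cells gave 2 lower and 1 higher of 3 tested in NT2/D1, and 3 higher, 1 lower and 1 not called of 5 in TCam-2. LNCPRESS2 had log2 fold changes of -1.77 (SE 0.16) in NT2/D1 and 0.84 (SE 0.18) in TCam-2, both called. TUNAR was listed here as a neural and pluripotency lncRNA, although GENCODE v44 annotates it as protein coding. It fell in both lines, with log2 fold changes of -1.27 (SE 0.11) in NT2/D1 and -1.18 (SE 0.15) in TCam-2. SOX2-OT, the transcript that overlaps SOX2, rose by 0.59 (SE 0.13) in NT2/D1 and had a log2 fold change of 0.31 with an SE of 0.20 (edgeR adjusted p = 0.184) in TCam-2. LNCPRESS1 rose by 2.13 (SE 0.15) and LINC01194 by 0.70 (SE 0.15) in TCam-2, and in NT2/D1 with MIR9-2-5p and scrambled LNCPRESS1 had 10 and 31 counts and LINC01194 had 5 and 5. MIR302CHG, host of the miR-302 cluster, had 7 and 23 counts in NT2/D1 with MIR9-2-5p and scrambled and was not tested.

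Markers of the lines moved beside these results. The summed level of 6 EC markers was 563 to 635 CPM in NT2/D1 with MIR9-2-5p, against 1948 to 2002 CPM with the scrambled control. In TCam-2 it was 273 to 297 CPM with MIR9-2-5p, against 364 to 381 CPM with the scrambled control. All 5 EC markers that passed the filter in NT2/D1 were lower, among them, named after their values were seen, TDGF1 (log2 fold change -2.42, SE 0.08) and GDF3 (-1.86, SE 0.07), and the sixth, LEFTY1, had 8 counts in all with MIR9-2-5p, against 50 with the scrambled control. The labels of the lines matched their markers. SOX17, a seminoma marker, had 0 and 2 counts in NT2/D1 with MIR9-2-5p and scrambled, and 280 ± 57.1 and 237 ± 12 CPM in TCam-2 (SD, n = 4 each). The 6 seminoma markers summed to 128 to 134 CPM in NT2/D1 with MIR9-2-5p, against 136 to 149 CPM with the scrambled control, and to 1611 to 1745 and 1391 to 1491 CPM in TCam-2. These sums held genes that moved in opposite directions. Of the 4 tested in NT2/D1, 2 were higher, 1 was lower and 1 was not called. Of the 6 tested in TCam-2, 3 were higher, 2 were lower and SOX17 was not called (edgeR adjusted p = 0.0649). The 8 fibroblast markers summed to 543 to 629 CPM in NT2/D1 with MIR9-2-5p, against 493 to 579 CPM with the scrambled control, and to 192 to 211 and 469 to 489 CPM in TCam-2, with the defining DCN at 0 except for 5 counts in the TCam-2 scrambled group. In NT2/D1 the fibroblast sum held 4 genes that rose and 3 that fell, among them, named after their values were seen, the collagen gene COL1A1 (log2 fold change 1.45, SE 0.10) and the surface protein gene THY1 (-1.17, SE 0.06). The part of these markers in the results was not tested. In such bulk samples fewer cells of a type and less RNA per cell cannot be told apart.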

How the data were processed

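The authors deposited 1 table of raw read counts per gene, a column for each of 16 libraries, with reads aligned to GRCh38 with STAR and counted with featureCounts. The processing notes name Trim Galore, cutadapt and FastQC for trimming, and the methods fastp. For the annotation release, the strand setting and reads that map to several places, the choice is not given in the sources used here. Symbols came from GENCODE v44, which held 58207 of the 58735 IDs. Members and gene lists were chosen with earlier results of these data known.

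CPM used trimmed mean of M-values (TMM) library factors. Counts were tested with edgeR 4.0.16 (quasi-likelihood, filterByExpr with a minimum count of 10 and a minimum total of 15, Benjamini-Hochberg adjustment over all tested genes, threshold 0.05), for MIR9-2-5p against scrambled within each line with that line's 8 libraries, between the scrambled groups, and for the difference of the responses over 16 libraries. The fitting was tested on simulated data in which few genes changed. It was not checked at call rates as high as those found here. Alternatives were DESeq2 1.42.0, library factors by RLE or upper quartile, raw library totals, other filters, 1 joint fit, a fold minimum, a replicate block and leaving out each library. Genes named were the members, the detected genes of the HERV-H, activator, retroviral and lncRNA lists, the 4 silencing genes with the smallest p in each line, the neighbours and the 3 genes most like each member. Other names are said to have been chosen after their values were seen. Copies were found with BLAST 2.17.0. Library totals were 14167738 to 22427162 counts, which limits precision for genes such as LINC-ROR in TCam-2. The copies' sequences and 1 gene that the rule names are not reported here.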

Additional observations from a re-analysis of the deposited data

Results flagged for a closer look

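ESRG is listed because every MIR9-2-5p library lay below every scrambled library in NT2/D1 and above every scrambled library in TCam-2. The share of all genes set apart in this way was not counted, so nothing is read from the separation. The difference of response (NT2/D1 minus TCam-2, log2) was -2.98. The edgeR interaction term called it as well, and since ESRG was chosen on these values that call is not independent evidence and no p-value is given.

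Among the other named genes, leaving out those picked for likeness to a member, the edgeR interaction term called a difference of response for 32 that passed the filter in both lines, 22 negative and 10 positive. Of all 19576 tested genes, this term called 27.9% positive and 25.3% negative. Some of the 32 were named after their values were seen, so nothing is read from the split. Among HERV-H linked genes the difference of response was -0.86 for HHLA3, -4.85 for LINC00458, -1.80 for LINC01108, -3.12 for LINC00678 and -0.77 for GSDMB. Among the factors that act on HERV-H it was -1.60 for POU5F1, -2.60 for NANOG, -1.37 for KLF4, -1.67 for TFCP2L1, -0.74 for EP300 and 1.71 for MED12. It was -1.79 for ERVH48-1, 1.38 for ERVV-2 and -2.59 for LNCPRESS2, and among silencing genes -0.76 for DNMT3B, -1.10 for CBX5, 0.66 for DNMT3A, 0.49 for TRIM28 and 1.46 for UHRF1. Around the members it was -0.82 for CACNA2D3, 1.58 for KCNQ3, 1.13 for PYGL and -3.11 for C5orf46. Among genes that start in a copy it was -4.34 for LINC01356, -3.13 for ENSG00000257474, -0.96 for RPL39L, 3.601 for TFPI and -1.43 for ENSG00000282048, and among markers -2.35 for TDGF1, -1.86 for GDF3, 1.25 for COL1A1 and 2.86 for THY1. A further 5 genes were called but had too few counts in 1 line to pass its filter, so their fitted values are not given. These were C4orf51, LNCPRESS1 and ENSG00000258417, with a negative difference, and UCA1 and ERVFRD-1, with a positive one.

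A single library stood apart within its group of 4 for 6 named genes, with the gap to the nearest library, as a share of the group's range, above Dixon's 95% critical value for 4 samples. The shares were 0.891 for NANOG and 0.852 for MED12 in NT2/D1 with the scrambled control, 0.859 for ERVV-2 in NT2/D1 with MIR9-2-5p and 0.887 for ERVMER34-1 in NT2/D1 with the scrambled control. In TCam-2 with MIR9-2-5p they were 0.972 for ERVK-28 and 0.845 for LNCPRESS2. Chance marks about 1 group in 20, and 139 groups of named genes were examined. None of the 20 member groups was marked.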

How the results depend on the processing

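All 5 members kept their direction in NT2/D1 under every alternative run. Leaving out 1 library at a time gave log2 fold changes there of -2.55 to -2.48 for ESRG, -3.17 to -3.09 for HHLA1, -2.60 to -2.41 for ABHD12B, -1.88 to -1.78 for SCGB3A2 and -2.66 to -2.30 for LINC-ROR. In TCam-2 the ranges were 0.43 to 0.51 for ESRG, 0.17 to 0.41 for HHLA1, -0.32 to -0.21 for ABHD12B and -0.30 to -0.21 for SCGB3A2. Upper-quartile factors moved the median of all genes in the difference of response by -0.125 and gave differences of -3.10 for ESRG and -1.71 for SCGB3A2, and 8 silencing genes called in NT2/D1, against 5. With raw library totals the TCam-2 scrambled level was 150.2 CPM for ESRG and 52.9 CPM for ABHD12B, whose TCam-2 groups then overlapped. Adding a 1.5-fold minimum to the call left 3907 genes of 10431 in NT2/D1, 4178 of 11177 in TCam-2, 5239 of 10414 in the difference and 9206 of 14045 between the scrambled groups. An identity minimum of 90%, chosen after seeing the data, left fewer genes that start in a copy to test. In NT2/D1 15 of 16 tested were called, against 23 of 24, and in TCam-2 10 of 12, against 17 of 19. Those called lower in NT2/D1 were 14 of 16, against 21 of 24. Those called higher in TCam-2 were 9 of 12, against 14 of 19. Same-numbered libraries did not deviate together (r from -0.313 to 0.0943 in NT2/D1 and -0.133 to 0.0268 in TCam-2), so the numbers were not taken as pairs. A replicate block gave 9555 calls in NT2/D1, 10819 in TCam-2, 9827 in the difference and 13658 between the scrambled groups, and changed none of the 150 results run with it. No result reversed. Depth limits LINC-ROR and other genes of a few counts, where a difference was not detectable.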
